A study of Mus musculus with 11 samples.

Results

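The clustered protocadherins are described here across all 11 RNA-seq libraries of the study. They were taken as every gene on chromosome 18 whose name starts with Pcdha, Pcdhb or Pcdhg, a rule that uses no measured value. The family and the gene lists used below were chosen with earlier results of these data known. These are 58 of the 34570 genes listed in either of the 2 deposited tables, with 14 in Pcdha, 22 in Pcdhb and 22 in Pcdhg. The mESC table lists 50 of them among 31518 genes (10 Pcdha, 18 Pcdhb and 22 Pcdhg). The MEF table lists 56 among 29450 genes (13 Pcdha, 21 Pcdhb and 22 Pcdhg), and 48 are in both. The mESC table has no row for Pcdha2, Pcdha3, Pcdha5, 1 of the pair of Ensembl genes named Pcdha11 (ENSMUSG00000102206), Pcdhb5, Pcdhb10, Pcdhb11 and Pcdhb21. The MEF table has none for Pcdha4 and Pcdhb1.

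Mouse embryonic stem cells (mESCs) came as 2 wild-type (WT, Atxn7l3+/+) and 3 Atxn7l3-/- libraries, and mouse embryonic fibroblasts (MEFs) as 3 libraries of each genotype. All animals were of DBA/2 x C57BL/6 background. ATXN7L3 is an adaptor that the deubiquitylases acting on monoubiquitylated histone H2B need for their activity, and the study asked what its loss does to transcripts. The null allele is constitutive and the cells of both genotypes came from crosses of heterozygous mice. The mESC lines were derived from single blastocysts, passaged first on feeder cells and then without them, and grown with LIF, 15% FCS, 1 uM PD0325901 and 3 uM CH99021. The MEFs came from E10.5 embryos freed of head and gastrointestinal tract, a cell mixture by its origin, and were grown in 10% FCS without further treatment.

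Clustered protocadherins are cell-surface proteins with cadherin repeats that bind identical isoforms on a neighbouring cell. They are best known in neurons, where each cell uses a small combination of isoforms by which its branches recognise themselves. Each alpha or gamma isoform starts from its own promoter and variable exon, which is spliced to constant exons that the whole cluster shares, whereas beta isoforms are encoded by a single large exon each. CTCF and cohesin join the promoters of chosen isoforms to distant enhancers, and DNA methylation and SMCHD1 help to keep the others silent. The last isoforms of the alpha and gamma clusters, named C-type (Pcdhac1, Pcdhac2, Pcdhgc3, Pcdhgc4 and Pcdhgc5), are regulated separately from the rest, and Pcdhgc3 is widely used outside neurons.

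In mm10 the 3 clusters follow each other on the plus strand of chromosome 18. Pcdha spans positions 36930184 to 37187661 (257 kb), Pcdhb 37264938 to 37524479 (260 kb) and Pcdhg 37661793 to 37841873 (180 kb). The genes between Pcdhb and Pcdhg include Slc25a2 (37637377 to 37638745), Taf7 (37640491 to 37644204) and 3222401L13Rik (37655451 to 37661742). In the median member, 46.4% of the exon bases of Pcdha, 100% of those of Pcdhb and 55.3% of those of Pcdhg belong to that gene alone in the GENCODE M21 annotation. A read in a constant exon therefore cannot be given to 1 alpha or gamma isoform, and how the authors' counting treated such reads was not given in the sources used here. Words of 50 bases were also compared between members, taken only from the exon bases that belong to a gene alone. Of these words, a median of 12.7% in Pcdha, 3.48% in Pcdhb and 0.81% in Pcdhg recurred in another member. Values of single members are uncertain to that extent, on top of the shared exons. Differences between the clusters in level also carry the difference in how many bases belong to a gene alone.

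Library totals ran from 34515342 to 49602605 counts, so that 3 counts, used here as a floor, stand for 0.0572 to 0.0938 CPM, the counts scaled to the library's normalized total, in a library. In mESCs the targeted gene Atxn7l3 had 10317 and 9849 counts in the WT libraries and 130, 75 and 37 in the Atxn7l3-/- libraries. In MEFs it had 4245, 3742 and 4258 counts in WT and 2130, 2168 and 2449 in the libraries labelled Atxn7l3-/-, a log2 fold change of -0.74 ± 0.21 (SE) with an adjusted p of 0.0715. This is a transcript measure alone, with no protein measure among the values used here. That group is therefore called the MEFs labelled Atxn7l3-/- throughout. The lines also differed in sex. Ddx3y, on the Y chromosome, had 4217 and 8508 counts in WT mESCs, 115, 37 and 8532 in Atxn7l3-/- mESCs, 9715, 2123 and 10 in WT MEFs and 6724 to 10546 in the MEFs labelled Atxn7l3-/-. Stem cell and fibroblast identity followed the labels in that Nanog, a pluripotency factor, had a mean of 797 CPM in WT and 477 CPM in Atxn7l3-/- mESCs and of 0.779 and 0.603 CPM in the MEF groups. All 12 fibroblast markers were higher and 7 of 8 tested stem cell markers lower in MEFs than in mESCs, in either genotype. Over all genes 26.8% were higher and 27.1% lower in WT, and 29.5% and 31.5% between the groups labelled Atxn7l3-/-.

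The 3 clusters differed widely in level in both cell types, and Pcdhg supplied most of the counts. The summed Pcdhg level was 35.7 and 42.6 CPM in WT mESCs and 331, 234 and 364 CPM in WT MEFs. The summed Pcdhb level was 0.573 and 0.494 CPM in WT mESCs and 86.3, 73.6 and 49.0 CPM in WT MEFs. Pcdha stayed lowest, with 0.210 and 0.288 CPM in WT mESCs and 5.75, 3.91 and 2.76 CPM in WT MEFs. No WT MEF library overlapped a WT mESC library in any cluster. Pcdhg made up 96.2 to 98.9% of the clusters' counts in the 5 mESC libraries and 75.1 to 87.6% in WT MEFs. The share of Pcdhb was 0.810 to 2.59% over the mESC libraries and 11.8 to 23.6% in WT MEFs. Per kb of transcript, Pcdha, Pcdhb and Pcdhg made up 0.449, 1.26 and 98.3% of the clusters' summed level in WT mESCs and 0.753, 16.4 and 82.9% in WT MEFs.

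**Figure D1:**
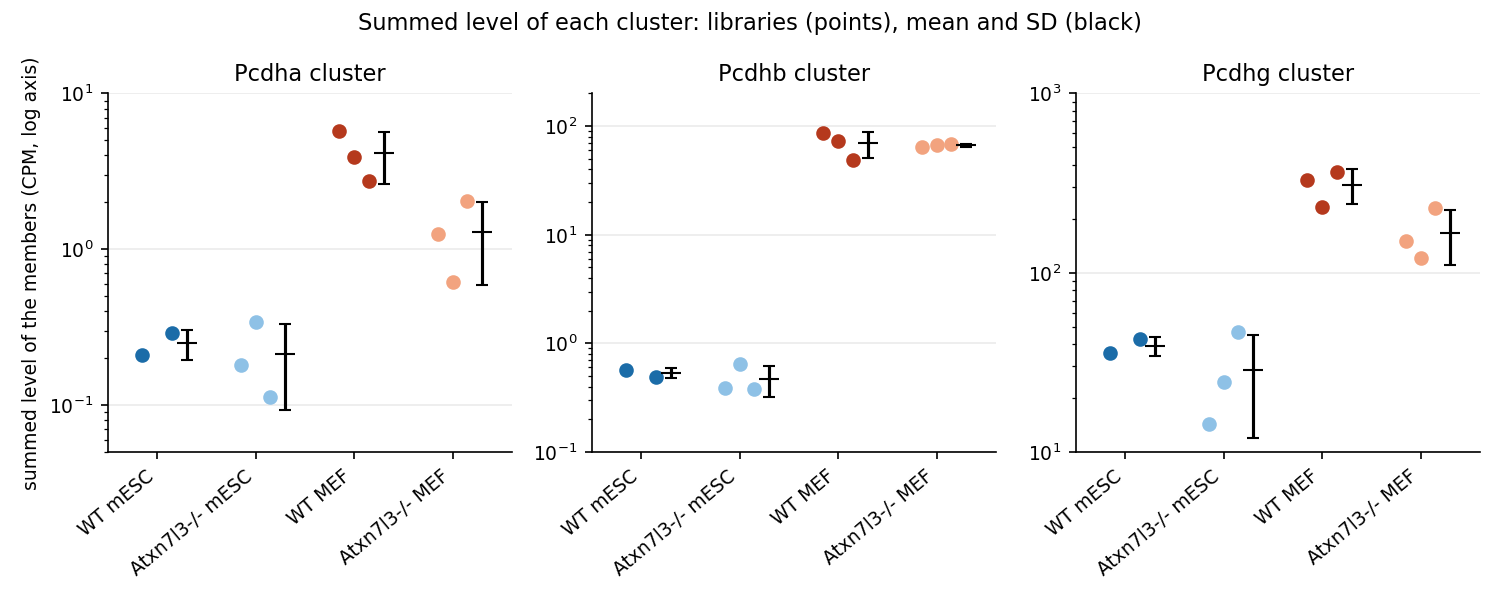
Summed level of the members of each cluster in CPM (log axis, with a different range in each panel) for mESCs and MEFs labelled WT or Atxn7l3-/-. Points are libraries and black marks are the mean and SD (n = 2 for WT mESCs, n = 3 for the others). In each cluster every MEF library lies above every mESC library, and among MEFs the genotypes stand apart for Pcdha and Pcdhg but not for Pcdhb.

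By the study's measure of expression, a median above 10 deposited normalized reads per kb over the libraries of a cell type, 4 Pcdhg members were expressed in mESCs (Pcdhga1, Pcdhga11, Pcdhgc3 and Pcdhgc5) and no member of Pcdha or Pcdhb. In MEFs 21 of 22 Pcdhg members, 10 of 21 Pcdhb members and 0 of 13 Pcdha members passed that limit. Of all listed genes 51.6% passed it in mESCs and 51.2% in MEFs. In WT mESCs 8 of the 10 listed Pcdha members and 16 of the 18 Pcdhb members had 3 counts or fewer in each library, and none of the 22 Pcdhg members did. In WT MEFs 3 Pcdha, 21 Pcdhb and 22 Pcdhg members had more than 3 counts in every library. Of the remaining 10 Pcdha genes of MEFs, Pcdha12 had 63, 2 and 18 counts in WT, and the other 9 had at most 9 counts in any WT MEF library.

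Compared per kb of transcript, 1 gene stood far above the rest. Pcdhgc3 (ENSMUSG00000102918) had 8467, 3861 and 8979 counts in WT MEFs, a level of 47.6 ± 13.7 CPM per kb (SD, n = 3), against 5.25 for Pcdhgc5 (ENSMUSG00000102543) and 5.16 for Pcdhga7 (ENSMUSG00000103472). In WT mESCs it had 838 and 977 counts, 5.03 CPM per kb on average. Pcdhgc3 alone held 51.5 to 60.2% of the summed Pcdhg CPM in WT MEFs and 44.8 to 47.2% in WT mESCs. The other C-type genes varied widely, since Pcdhgc4 (ENSMUSG00000023036) had 314, 62 and 88 counts in WT MEFs, Pcdhac2 (ENSMUSG00000102697) 157, 103 and 50, and Pcdhac1 0 in all 3.

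Within Pcdhb the highest levels in WT MEFs were those of Pcdhb22, at 3.87 CPM per kb, and Pcdhb17, at 2.52 CPM per kb. Pcdhb22 had 881, 595 and 613 counts in WT MEFs and 10 and 6 in WT mESCs. Within Pcdha the leading genes were Pcdhac2 at 0.433 CPM per kb and Pcdha12 at 0.112 CPM per kb. Pcdha12 rested on 63, 2 and 18 counts, so the first WT MEF library carried most of its level. When only the bases that belong to a gene alone were used as its length, Pcdhgc3, Pcdhb22 and Pcdhac2 still ranked first in their clusters in WT MEFs, and Pcdhgc5 moved from rank 2 to rank 9 in Pcdhg.

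**Figure D2:**
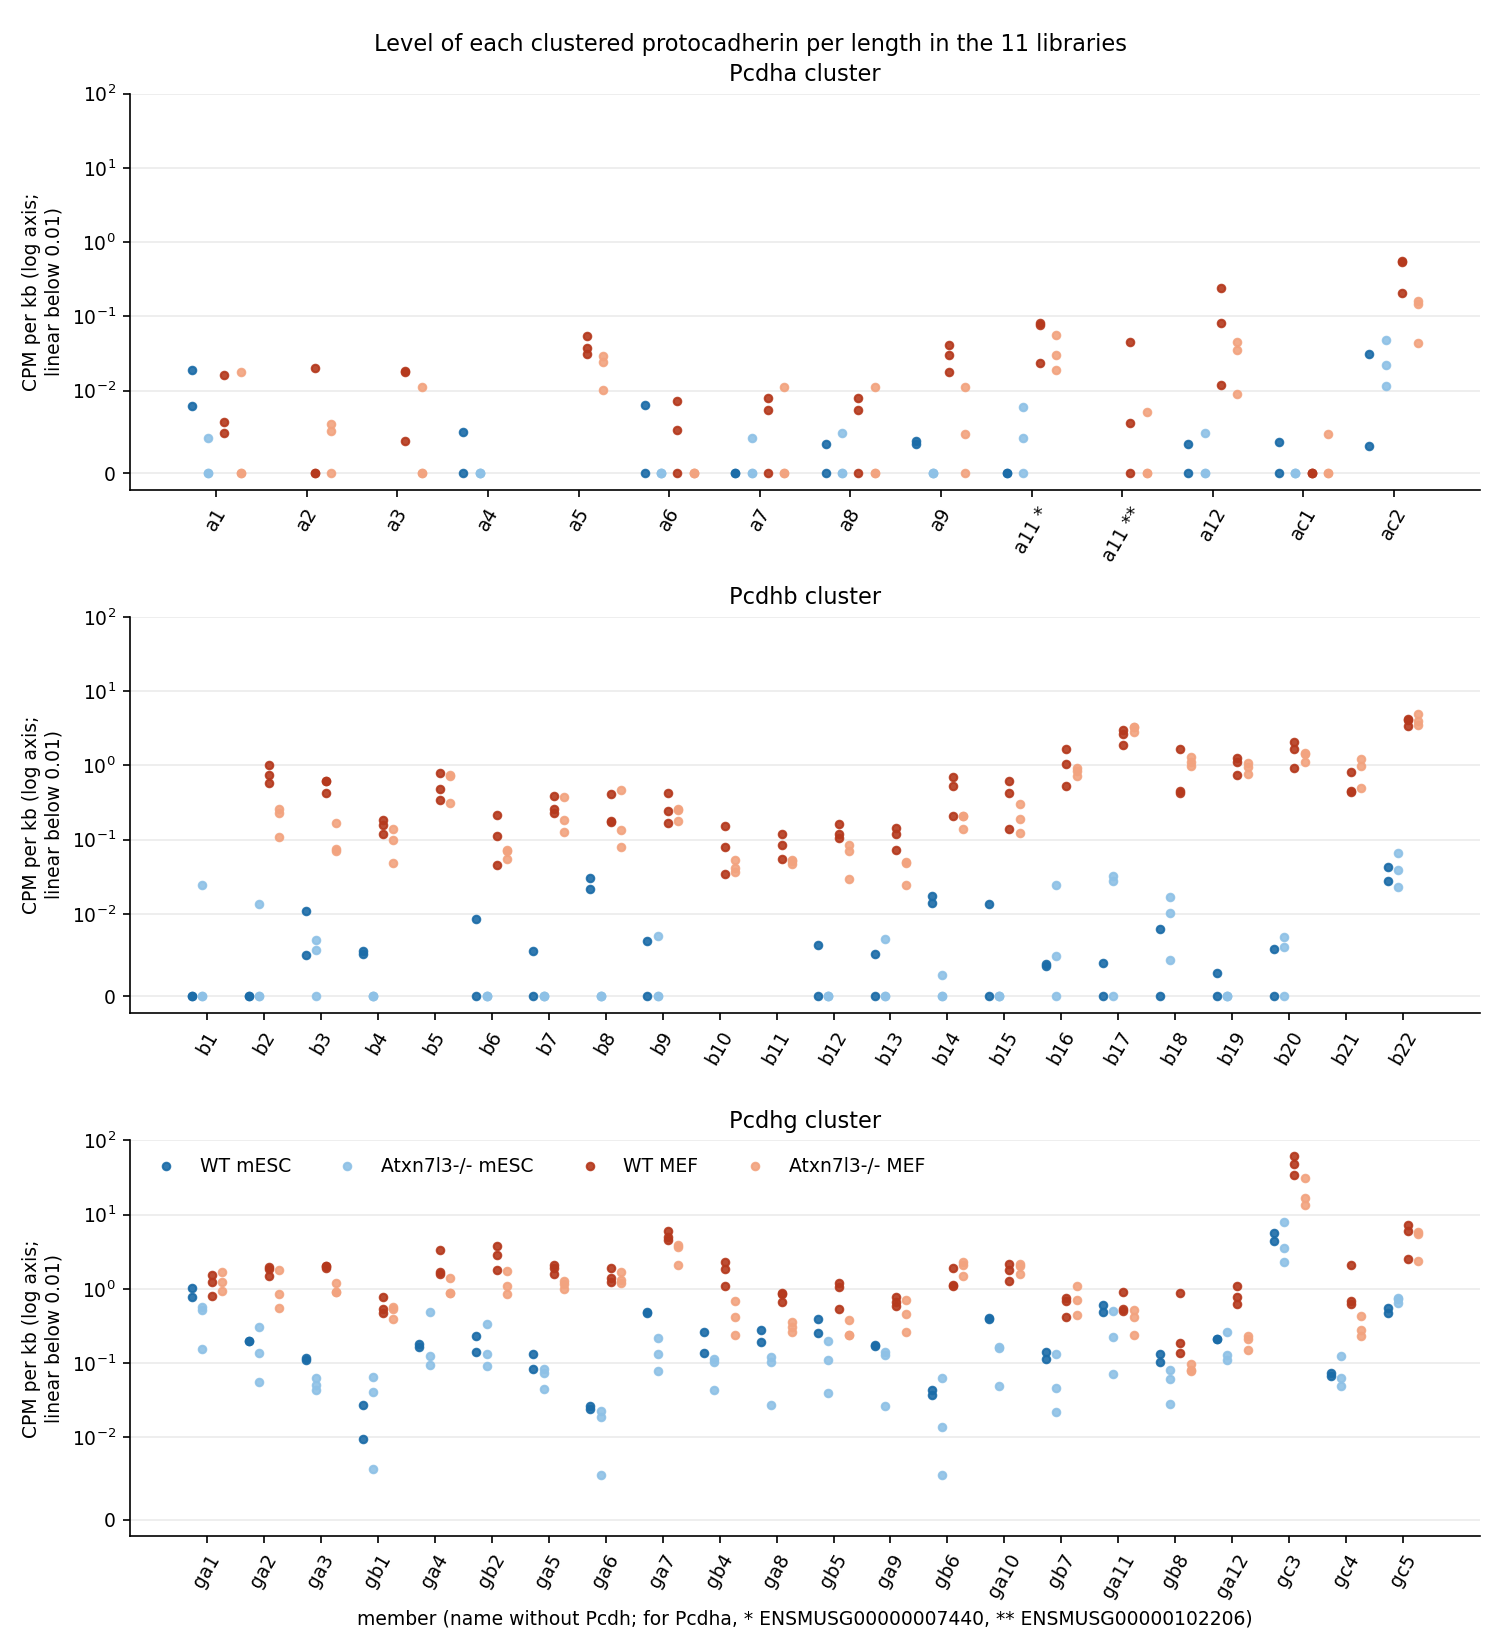
Level of each listed clustered protocadherin per kb of median transcript length (CPM per kb, log axis that is linear below 0.01), 1 panel per cluster, with 1 point per library coloured by cell type and genotype. Pcdhgc3 lies above all other members in every group, Pcdhb members lie near 0 in mESCs and at measurable levels in MEFs, and most Pcdha members stay near the floor.

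The first comparison asked which members differed between WT MEFs and WT mESCs. Of 41 members with enough counts to be tested by edgeR's quasi-likelihood test, 37 were higher in MEFs and 0 were lower, at an adjusted p of 0.05 or less. Over the 19326 genes tested, 26.8% were higher and 27.1% were lower. In 39 of the 41 (95.1%) both WT mESC libraries lay below all WT MEF libraries, against 34.7% of all genes. All 3 tested Pcdha genes, all 16 tested Pcdhb genes and 18 of 22 Pcdhg genes passed. The filter kept most Pcdha and Pcdhb genes only through their MEF counts, so these counts describe the genes tested and not each cluster. The cell types also differ in culture and deposited table, and these cannot be told apart from cell type.

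In the beta cluster the change was from nearly no counts to moderate levels. Pcdhb17 (ENSMUSG00000046387) had 1 and 0 counts in WT mESCs and 679, 399 and 365 in WT MEFs, a ratio of 1194 with a 95% counting interval of 214 to 47200. Pcdhb19 had 0 and 1 counts against 435, 256 and 214. Pcdhb20 had 0 and 1 counts against 362, 189 and 135. Each of these beta genes thus had at most 1 count in a WT mESC library and 135 or more in every WT MEF library. Pcdhb2 had no count in WT mESCs and 82, 31 and 50 in WT MEFs, at least 45.0-fold higher when 3 counts over the mESC group are taken as the floor. Pcdhb22, which had 16 counts in the WT mESCs together, was 108-fold higher (95% counting interval 66.4 to 189). The median log2 fold change of the 16 tested Pcdhb genes was 6.19, or 6.01 with the gene at 0 set to its bound, while the median over all genes was -0.00487. Counting intervals here cover counting error only. The fitted log2 fold changes of the lowest genes depended on 1 mESC library. That of Pcdhb17 (9.84) was 11.92 without the first and 9.05 without the second WT mESC library, that of Pcdhb19 (9.15) was 8.29 and 11.26, and that of Pcdhb20 (8.74) was 7.87 and 10.84.

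The gamma cluster started from a measurable level in mESCs and rose by less. The median log2 fold change of its 22 members was 3.20. Pcdhga6 had the largest, 5.88 ± 0.66 (SE), with an adjusted p of 6.38e-05, from 6 and 6 counts in WT mESCs to 326, 289 and 240 in WT MEFs. Pcdhgb6 (log2 fold change 5.07), Pcdhgb1 (4.93) and Pcdhga3 (4.14) followed. Pcdhgc3 rose by 3.24 ± 0.58 (SE) on the log2 scale, with an adjusted p of 9.95e-04, Pcdhgc4 by 3.99 and Pcdhgc5 by 3.36. Without the first WT MEF library the value of Pcdhgc4 was 3.21, and without the first WT mESC library that of Pcdhgb1 was 5.81. The 4 gamma genes that did not pass were Pcdhga1 (0.43, adjusted p 0.561), Pcdhga11 (0.25, adjusted p 0.790), Pcdhgb5 (1.52, adjusted p 0.0847) and Pcdhgb8 (1.75, adjusted p 0.0937). Of these, Pcdhga1 and Pcdhga11 were the genes at a high level in mESCs, with 159 and 197 counts and 122 and 138 counts in the WT libraries.

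Among the alpha genes, Pcdhac2 had 1 and 9 counts in WT mESCs and 157, 103 and 50 in WT MEFs, a ratio of 25.7 with a counting interval of 13.8 to 54.0. Pcdha11 (ENSMUSG00000007440) had no count in WT mESCs and 21, 4 and 17 in WT MEFs, at least 11.6-fold higher. Pcdha12 had 1 count in the WT mESCs together against 83 in the WT MEFs. Its fitted log2 fold change of 5.57 was 7.64 without the first WT mESC library and 4.78 without the second, where it no longer passed (adjusted p 0.0911), and it had too few counts to be tested without the first or the third WT MEF library. The value of Pcdhac2 (4.61) was 3.76 without the first and 6.85 without the second WT mESC library. The other 6 alpha genes listed in both tables had too few counts in either cell type to be tested.

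Between the MEFs labelled Atxn7l3-/- and Atxn7l3-/- mESCs, 37 of the same 41 genes were again higher and 0 lower, where 29.5% of all genes were higher. Its libraries differ from those of the WT comparison, but both come from 1 fit of all 11 libraries, with a shared filter and estimate of spread. They are therefore not independent. The filter again kept most Pcdha and Pcdhb genes only through their MEF counts, so this tally describes the genes tested and not each cluster. The medians were 2.87 for Pcdha, 6.79 for Pcdhb (5.60 with the 6 genes at 0 in mESCs set to their bound) and 2.51 for Pcdhg. Pcdhb19 had 0 counts in the 3 mutant mESC libraries and 258, 215 and 260 in the MEFs, at least 288-fold higher. Pcdhb7 and Pcdhb15, also at 0 in mutant mESCs, were at least 35.4-fold and 24.4-fold higher. In Pcdhg the largest fold changes belonged to Pcdhga6 (6.39), Pcdhgb6 (6.11), Pcdhga7 (4.47) and Pcdhga3 (4.25), and Pcdhgc3 rose by 2.167. The genes that did not pass were Pcdhga11, Pcdhga12, Pcdhgb5 and Pcdhgb8. Without the third Atxn7l3-/- mESC library the values of Pcdhgb6 and Pcdhgc3 were 7.53 and 2.81. Among the alpha genes and Pcdhgc4 the call was lost without any 1 of 3 libraries for Pcdha11 (ENSMUSG00000007440), of 4 for Pcdha12, of 6 for Pcdhac2 and of 3 for Pcdhgc4 (adjusted p 0.0574 to 0.0671).

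The second comparison asked how these genes differed between MEFs labelled Atxn7l3-/- and WT MEFs, and it shares the WT MEF libraries with the first. Of 42 members tested, Pcdhb3 and Pcdhga12 fell and 0 rose. These 2 genes are 4.76% of the members tested, near the background of 4.39% of all genes that fell (5.01% rose and 9.41% did either). The other values of the clusters leaned downward without passing the test. Of the 42 fold changes 33 (78.6%) were below 0, against 52.5% of all genes, and the median was -0.72 against -0.06 for all genes. The median was -1.36 for the 2 tested Pcdha genes, -0.34 for the 18 Pcdhb genes and -0.74 for the 22 Pcdhg genes. In 18 members (42.9%) all 3 MEF libraries labelled Atxn7l3-/- lay below all 3 WT libraries, against 19.7% of all genes, and in 0 members did they all lie above, against 20.1% of all genes. Unadjusted p-values under 0.05 with a fall were found in 14 members (33.3%), against 17.8% of all genes.

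Pcdhb3 (ENSMUSG00000045498) had 114, 74 and 65 counts in WT MEFs and 24, 11 and 9 in the MEFs labelled Atxn7l3-/-. Its level went from 2.08 ± 0.42 to 0.396 ± 0.209 CPM (SD, n = 3 each), a log2 fold change of -2.40 ± 0.52 (SE) with an adjusted p of 0.0404. Pcdhga12 (ENSMUSG00000102428) had 181, 93 and 208 counts in WT and 37, 28 and 37 in the labelled mutants. That is 3.892 ± 1.099 against 0.935 ± 0.200 CPM (SD, n = 3 each), a log2 fold change of -2.07 ± 0.44 (SE) with an adjusted p of 0.0397. In both genes the genotypes did not overlap. Neither call held when any 1 of the 6 libraries was left out. With 5 of them left out in turn no member passed, and without the third mutant library Pcdhgc3 alone did (-1.66, adjusted p 0.0363). DESeq2, the study's own tool, called 11 of 48 members lower, Pcdhb3 and Pcdhga12 among them, with a background of 11.9% of genes.

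With the replicate number as a block, 4 members were lower, against 8.49% of all genes. Besides Pcdhb3 and Pcdhga12 these were Pcdhgc3 (-1.28, adjusted p 0.0293) and Pcdhgb4 (-2.02, adjusted p 0.0322).

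**Figure D3:**
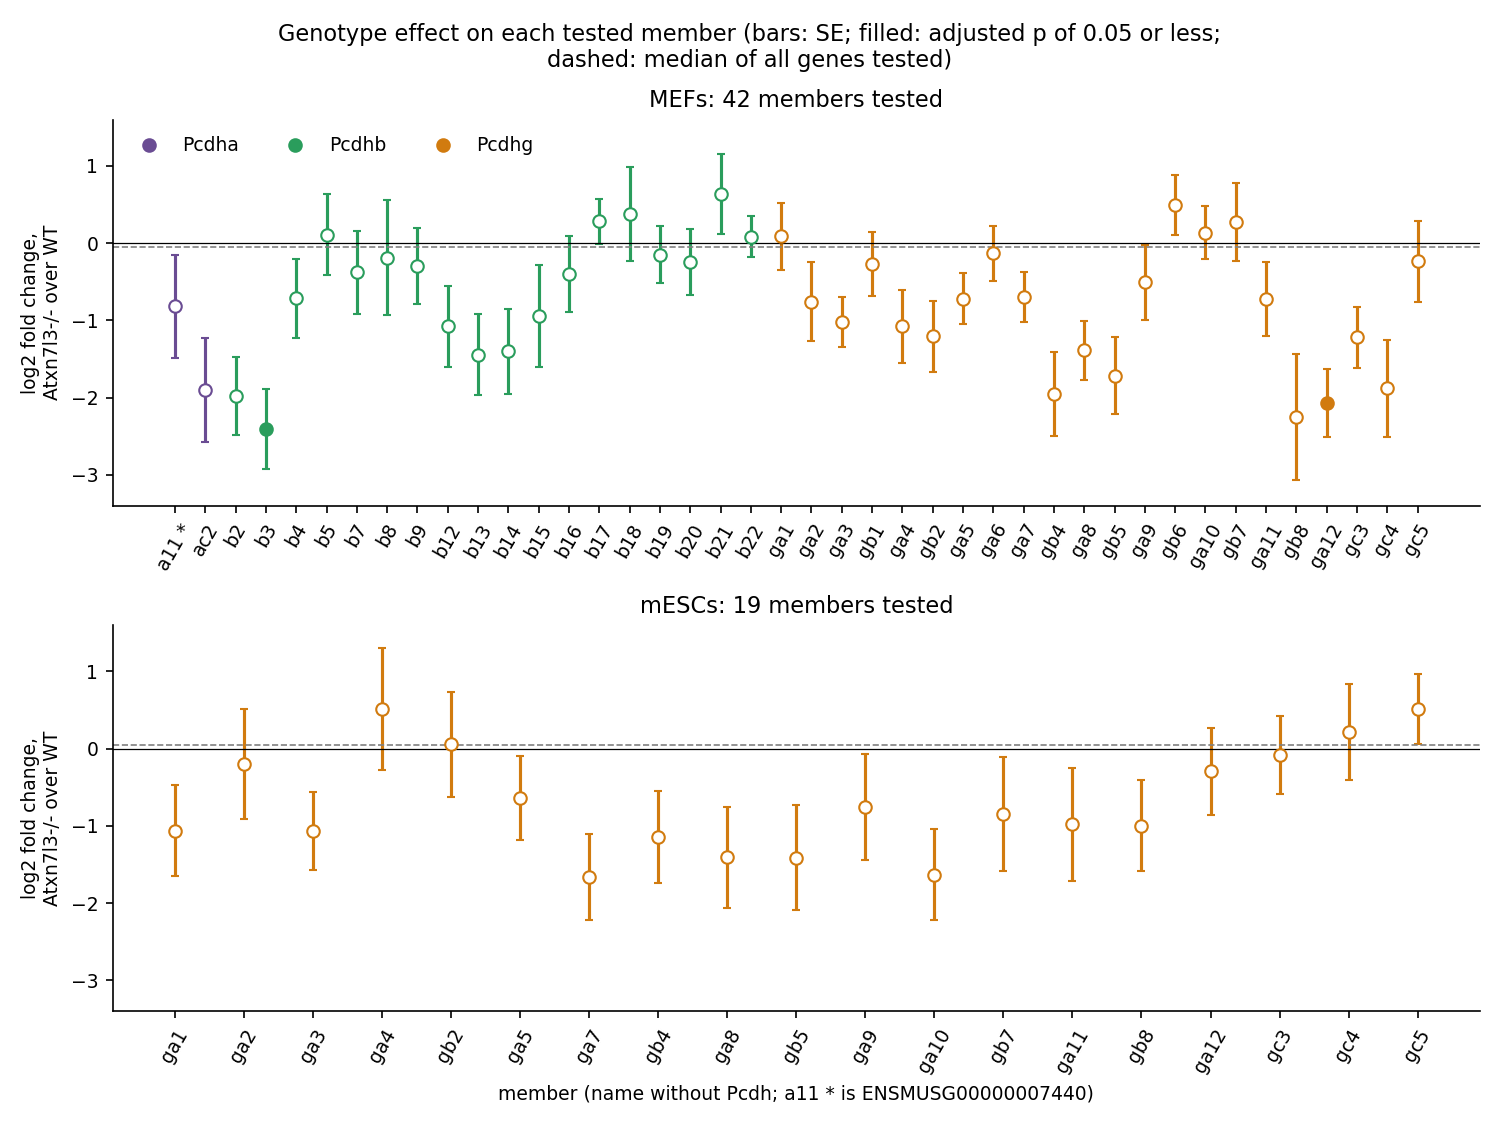
Log2 fold change of each tested member, libraries labelled Atxn7l3-/- over WT, in mESCs (19 members) and MEFs (42 members), ordered along the chromosome and coloured by cluster. Bars are SE, filled points have an adjusted p of 0.05 or less and the dashed line is the median of all genes tested. Filled points are Pcdhb3 and Pcdhga12 in MEFs, and 33 of 42 points in MEFs and 15 of 19 in mESCs lie below 0.

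The C-type genes, of which Pcdhgc3 held most of the counts, moved unevenly in MEFs. Pcdhgc3 had 8467, 3861 and 8979 counts in WT and 2275, 1881 and 3765 in the MEFs labelled Atxn7l3-/-, or 170.8 ± 49.3 against 73.8 ± 34.3 CPM (SD, n = 3 each). Its groups did not overlap, and its log2 fold change was -1.22 ± 0.39 (SE) with an adjusted p of 0.0919. Pcdhac2 had 157, 103 and 50 counts against 32, 10 and 32 (-1.90, adjusted p 0.110). Pcdhgc4 had 314, 62 and 88 counts against 50, 28 and 29 (-1.88, adjusted p 0.0974), with the first WT library far above the others and a value of -1.08 without it. Pcdhgc5 had 948, 213 and 655 counts against 583, 244 and 485, and its groups overlapped (-0.23, adjusted p 0.780). Summed over the C-type genes, the level was 132.5 to 238.5 CPM in WT and 55.4 to 129.1 CPM in the labelled mutants, which did not overlap. Most of that sum was Pcdhgc3.

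The summed Pcdhg level was 151, 121 and 229 CPM in the MEFs labelled Atxn7l3-/-, 0.539 times the WT mean, and the highest of these lay just under the lowest WT library. Without Pcdhgc3 the sums were 158, 114 and 145 CPM in WT and 90.7, 72.6 and 117 CPM in the labelled mutants, which overlap. Pcdhgc3 held 39.9 to 49.2% of the summed Pcdhg level in the labelled mutants, below its WT share of 51.5 to 60.2%. The gamma A genes summed to 86.2 ± 8.1 CPM in WT and 57.4 ± 13.7 CPM in the labelled mutants, and the gamma B genes to 35.3 ± 10.0 and 22.8 ± 6.1 CPM (SD, n = 3 each). The summed Pcdha level was 1.25, 0.614 and 2.04 CPM, all below the 3 WT values.

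Single gamma genes behaved differently from each other. Pcdhgb4 had 375, 145 and 388 counts in WT MEFs and 66, 39 and 96 in the labelled mutants (-1.95, adjusted p 0.0674). Pcdhga8 had 196, 100 and 171 counts against 63, 49 and 48 (-1.39, adjusted p 0.0669). Both pairs of groups stood apart without passing the test. Pcdhga10 had 410, 193 and 419 counts in WT and 366, 292 and 339 in the labelled mutants (0.14, adjusted p 0.808), so its groups overlapped. An antisense gene, Gm26672, lies over Pcdhga10 and had 8, 2 and 6 counts in WT MEFs. With genes on both strands considered, 0 exon bases of Pcdhga10 belong to it alone. Whether the authors' counting used strand was not given in the sources used here.

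In contrast to the gamma and alpha sums, the summed Pcdhb level was 64.3, 67.5 and 68.0 CPM in the MEFs labelled Atxn7l3-/-, within the WT range of 49.0 to 86.3 CPM. The share of Pcdhb in the clusters' counts was 22.7 to 35.8% in the labelled mutants. The cluster was not uniform along its length. Of the 11 tested genes from Pcdhb2 to Pcdhb15, 10 had a fold change below 0, with a median of -0.94, and their sums were 17.4, 18.7 and 9.52 CPM in WT against 10.0, 8.19 and 6.14 CPM. Of the 7 genes from Pcdhb16 to Pcdhb22, 3 were below 0, with a median of 0.081, and their sums were 68.9, 54.9 and 39.4 CPM against 54.3, 59.3 and 61.9 CPM. The genotypes overlapped in both sums. Pcdhb16 to Pcdhb22 held 74.6 to 80.6% of the summed Pcdhb level in WT and 84.4 to 91.0% in the labelled mutants. The split was chosen after the values were seen and was not tested. With a correction for GC content all 11 genes of the first stretch and 6 of the 7 of the second lay below 0, with medians of -1.11 and -0.14. Across the 18 tested Pcdhb genes, position and fold change had a Spearman rho of 0.60, and across the 22 Pcdhg genes of -0.19. These genes share their libraries and neighbouring genes resemble each other in sequence.

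In the stretch from Pcdhb2 to Pcdhb15, Pcdhb2 had 82, 31 and 50 counts in WT MEFs and 16, 15 and 6 in the labelled mutants (-1.98, adjusted p 0.0562). Pcdhb14 had 298, 148 and 75 counts against 68, 48 and 60 (-1.40, adjusted p 0.136). In both the genotypes stood apart. In the stretch from Pcdhb16 to Pcdhb22, Pcdhb17 had 679, 399 and 365 counts against 573, 595 and 435 (0.28, adjusted p 0.518). Pcdhb22 had 881, 595 and 613 counts against 580, 681 and 738 (0.081, adjusted p 0.851). The genes with the highest beta levels in MEFs thus showed overlapping genotypes.

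Markers of other cell types differed between the MEF genotypes, in counts to be read against the 4.39% of all genes that fell and the 5.01% that rose. The summed level of 12 neuron markers was 197, 202 and 376 CPM in WT MEFs and 23.7, 11.2 and 49.6 CPM in the MEFs labelled Atxn7l3-/-, and 5 of the 9 tested fell (Map2, Dcx, Stmn2, Nefl and L1cam), with Snap25 at 0 in all 3 labelled mutants. The 5 glia and Schwann cell markers summed to 111, 92.8 and 107 CPM in WT and 16.6, 9.59 and 5.27 CPM in the labelled mutants. Of these, 3 fell (Sox10, Foxd3 and Fabp7), and Foxd3 was at 0 in the labelled mutants. The 9 mesothelium and epithelium markers summed to 16.5, 43.2 and 29.5 CPM in WT and 5871, 4872 and 4022 CPM in the labelled mutants, and 5 of 8 rose (Msln, Upk3b, Lrrn4, Wt1 and Krt18). None of the 12 fibroblast markers passed, nor did any of the 5 endothelium or 5 macrophage markers. Of the stem cell markers tested in MEFs, 1 of 5 rose (Tfcp2l1). The neuron and glia lists are not specific to those cells. In WT mESCs they summed to 349 and 429 CPM and to 251 and 137 CPM. Clustered protocadherins are used by neurons and glia, and the part of these cells in the differences above was not tested. In bulk libraries fewer cells of a type and less RNA per cell cannot be told apart.

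**Figure D4:**
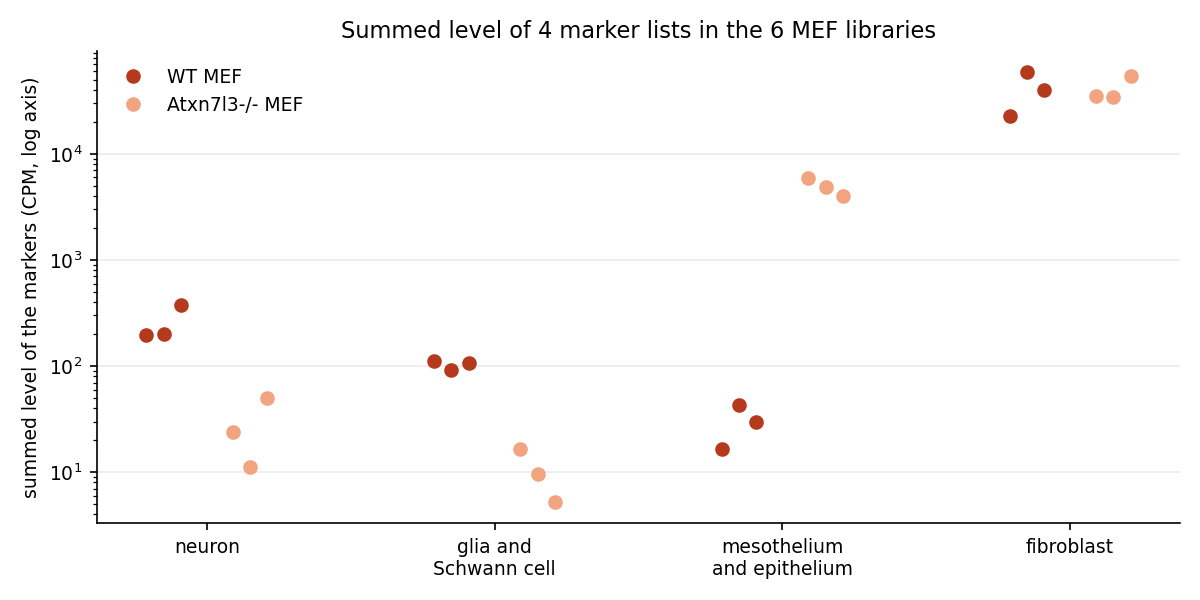
Summed level of 4 lists of cell type markers (CPM, log axis) in the 6 MEF libraries, 1 point per library, WT beside those labelled Atxn7l3-/-. Neuron and glia markers lie lower and mesothelium and epithelium markers higher in all 3 libraries labelled Atxn7l3-/-, and the fibroblast markers overlap.

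In mESCs the third comparison could be made for Pcdhg alone, since no Pcdha or Pcdhb gene had enough counts. Of the 19 gamma genes tested, 0 passed by edgeR's quasi-likelihood test, where 6.96% of all genes did (3.08% higher and 3.88% lower). At an unadjusted p under 0.05, 2 were lower (14.8% of all genes), and DESeq2 called the same 2 genes lower (8.9% of all genes). These were Pcdhga7 and Pcdhga10. Pcdhga7 had 98 and 88 counts in WT and 12, 24 and 38 in Atxn7l3-/- mESCs (-1.66 ± 0.55, SE, adjusted p 0.100), and its groups stood apart. Pcdhga10 had 97 and 94 counts against 9, 36 and 34 (-1.63, adjusted p 0.120), and its groups stood apart too. Gm26672, antisense over Pcdhga10, had 0.744 to 0.824 CPM in WT and 0.514 to 1.29 CPM in Atxn7l3-/- mESCs. Without the third Atxn7l3-/- library Pcdhga7 passed (-2.11, adjusted p 0.0496).

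Fold changes were below 0 in 15 of the 19 gamma genes (78.9%), against 47.7% of all genes, with a median of -0.85 against 0.04. All mutant libraries lay below both WT libraries in 10 genes (26.7% of all genes did so) and above them in 1, Pcdhgc5 (23.0% of all genes). Pcdhgc5 had 76 and 62 counts in WT and 75, 81 and 88 in Atxn7l3-/- mESCs (0.51, adjusted p 0.475). Pcdhgc3 had 838 and 977 counts in WT and 316, 597 and 1257 in Atxn7l3-/- mESCs (-0.08, adjusted p 0.932). The mutant lines thus lay on either side of the WT lines. The summed Pcdhg level followed that gene, at 14.3, 24.7 and 46.8 CPM in the mutant libraries against 35.7 and 42.6 CPM in WT. Without Pcdhgc3 the sums stood apart, at 19.7 and 22.5 CPM in WT and 6.22, 11.9 and 18.5 CPM in Atxn7l3-/- mESCs. Pcdhgc3 held 51.9 to 60.5% of the summed Pcdhg level in the mutants, above its share of 44.8 to 47.2% in WT, whereas in MEFs its share was lower in the labelled mutants.

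Of the 3 mutant mESC lines the first was the lowest and the third the highest in that sum. The third was the only mutant line with Ddx3y counts like those of WT (8532, against 115 and 37). Neuron markers summed to 349 and 429 CPM in WT and 198 to 269 CPM in Atxn7l3-/- mESCs, with 2 of 9 lower (Tubb3 and Nefl). Fibroblast markers summed to 1438 and 2506 CPM in WT and 3126 to 5276 CPM in the mutants, with 2 of 11 higher (Col1a1 and Col5a1). Over all genes 3.88% were lower and 3.08% higher. Of the other lists, Foxd3 of the glia list and Klf2 and Tdgf1 of the stem cell list were lower. The glia list summed to 251 and 137 CPM in WT mESCs and is not specific to glia. Epcam of the epithelium list was higher, and no endothelium or macrophage marker passed. The part of sex and of these markers in the gamma values was not tested.

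For Pcdha and Pcdhb in mESCs only sums can be given. Pcdha summed to 0.180, 0.343 and 0.113 CPM and Pcdhb to 0.386, 0.643 and 0.383 CPM in Atxn7l3-/- mESCs. The sums lie around the WT values in both clusters. The make-up of the beta sum stood apart between the genotypes, since Pcdhb16 to Pcdhb22 held 45.8% of it or less in the WT libraries and 86.7, 86.7 and 82.4% in Atxn7l3-/- mESCs. In counts, Pcdhb1 to Pcdhb15 had 18 and 13 in WT and 2, 4 and 3 in the mutants, and Pcdhb16 to Pcdhb22 had 12 and 11 against 13, 26 and 14. These are few counts, the split was chosen after the values were seen, and no beta gene was tested in mESCs.

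The difference between the genotype effects in MEFs and in mESCs was tested as an interaction term, with all 11 libraries fitted together. Of 41 members 0 passed by edgeR, where 11.4% of all genes did. At an unadjusted p under 0.05, Pcdhb8 and Pcdhga10 were higher and Pcdhga12 was lower in this difference. Pcdhb8 had 3 and 2 counts in WT mESCs and 0 in the mutant mESCs, so its value rests on counts at the floor. Its fold change in MEFs was -0.19 (adjusted p 0.877). Over all genes 15.1% were higher and 15.8% lower at that limit, larger shares than among the 41 members. DESeq2 called Pcdhga10 higher (1.80, adjusted p 0.0171) and Pcdhga12 lower (-1.74, adjusted p 0.0379), with backgrounds of 10.2% and 11.2%. Pcdhga10 thus had a fold change of -1.63 in mESCs and 0.14 in MEFs. Pcdhga12 had 52 and 49 counts in WT mESCs and 20, 28 and 55 in Atxn7l3-/- mESCs, which overlap, against the fall in MEFs given above. Of the C-type genes, Pcdhgc3 had a difference of -1.08 ± 0.68 (SE, adjusted p 0.304), Pcdhac2 of -2.53 and Pcdhgc4 of -2.01. With a library left out, the difference ran from -1.515 to -0.431 for Pcdhgc3 and from -4.75 to -1.66 for Pcdhac2. It ran from -2.30 to -1.23 for Pcdhgc4 and from -1.01 to -0.363 for Pcdhgc5.

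Transcripts of the factors that act on these clusters were read from a list of 23 chromatin regulators. In mESCs 5 were lower and 0 higher, against 3.88% and 3.08% of all genes: the insulator factor Ctcf (-0.79, adjusted p 0.0480), the cohesin subunit Rad21 (-1.02, 0.0324), Lrif1 (-3.46, 0.0406), a partner of SMCHD1, the corepressor Trim28 (-1.11, 0.0287) and the neuronal gene repressor Rest (-0.94, 0.0411). Rad21 lay at 469 and 441 CPM in WT and at 243, 228 and 178 CPM in Atxn7l3-/- mESCs, and Ctcf at 176 and 204 CPM against 113, 115 and 91.5 CPM. With the replicate number as a block 3 of these were lower (Lrif1, Trim28 and Rest), against 4.06% of all genes. In mESCs that block leaves the third mutant library out of the genotype difference. In MEFs 0 of 23 passed, and the median was 0.38 against -0.35 in mESCs. The interaction was higher for 6 of 23 (Ctcf, Rad21, Pds5a, Lrif1, Dnmt3b and Rest), where 6.14% of all genes were higher, and for 3 of 23 with the block (3.18% of all genes). From WT mESCs to WT MEFs 13 of the 23 were lower and 1 was higher, against 27.1% and 26.8% of all genes.

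A list of 22 partners and downstream genes holds kinases, the actin regulators of the WAVE complex and the proteases that cleave protocadherins. In mESCs Marcks, an actin-binding membrane protein, was lower (38.2 and 33.7 CPM against 8.48, 7.27 and 11.9 CPM, log2 fold change -1.91, adjusted p 0.0231), as 1 of 21 tested. Over all genes 3.88% were lower there. In MEFs 2 of 22 were higher and 1 was lower, against 5.01% and 4.39% of all genes. Psen2, a subunit of gamma-secretase, went from 18.2, 22.5 and 21.6 CPM to 120, 85.6 and 99.6 CPM (2.28, adjusted p 0.0062). Abi2, of the WAVE complex, was higher (1.30, adjusted p 0.0480). Ret, a receptor tyrosine kinase of the nervous system, went from 4.71, 4.06 and 6.76 CPM to 0.239, 0.281 and 0.629 CPM (-3.76, adjusted p 0.0189). With the replicate number as a block, 3 of the 22 were higher and 3 lower in MEFs, against 877 and 1355 of the 15958 genes tested.

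The 12 protocadherins that lie outside the clusters gave a second view of the family. From WT mESCs to WT MEFs 9 were higher, against 26.8% of all genes, and 0 lower, with a median log2 fold change of 6.34. In MEFs 1 of the 10 tested was higher and 4 were lower in the labelled mutants, against 5.01% and 4.39% of all genes. Pcdh18 had 90.0, 109 and 83.7 CPM in WT and 20.5, 13.1 and 29.2 CPM in the labelled mutants (-2.18, adjusted p 0.0184). Pcdh17 went from 10.53, 3.188 and 8.298 CPM to 0.319, 0.640 and 0.479 CPM (-3.95, adjusted p 0.0207). Pcdh20 went from 7.65, 2.25 and 7.39 CPM to 0.186, 0.128 and 0.389 CPM (-4.62, adjusted p 0.0217). Pcdh8, at 0.439 to 0.844 CPM in WT, was at 0 in all 3 labelled mutants. Pcdh11x rose from 1.71, 3.72 and 2.93 CPM to 25.2, 12.8 and 7.84 CPM (2.43, adjusted p 0.0419). With the replicate number as a block 6 were lower (8.49% of all genes) and 0 higher. Of the 5 tested in mESCs 0 passed.

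Of the 38 other protein-coding genes within 1 Mb of the clusters, 1 was higher (Pfdn1, 0.98, adjusted p 0.0444) and 1 lower (Fgf1, -4.75, adjusted p 0.0311) among 37 tested in Atxn7l3-/- mESCs. Over all genes 3.08% were higher and 3.88% lower. Among 33 tested in MEFs, Taf7 and Gnpda1 were higher and Psd2 was lower, against 5.01% and 4.39% of all genes. Taf7, a subunit of the general transcription factor TFIID, lies between the beta and gamma clusters. It had 9.37 to 10.8 CPM in WT MEFs and 23.7, 31.8 and 19.3 CPM in the labelled mutants (1.27, adjusted p 0.0404), while in mESCs it had 210 and 193 CPM in WT and 123, 168 and 158 CPM in the mutants. Its genotype effects differed between the cell types (interaction 1.72, adjusted p 0.0116). From WT mESCs to WT MEFs it fell by 4.30 on the log2 scale, while the tested genes on either side of it, in Pcdhb and Pcdhg, were higher or did not pass. Slc25a2, another gene between the clusters, stayed at or below 0.281 CPM in every MEF library. 3222401L13Rik, also there, had 3.54 to 3.63 CPM in WT and 0.668 to 1.67 CPM in Atxn7l3-/- mESCs. In MEFs it had 3.59 to 7.14 CPM in WT and 1.82 to 2.71 CPM in the labelled mutants. Neither difference passed by edgeR's quasi-likelihood test (-1.53, adjusted p 0.0959, and -1.21, adjusted p 0.114).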

How the data were processed

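RNA was sequenced from 5 mESC and 6 MEF libraries made with a stranded poly(A) kit. The authors mapped reads to mm10, and the submitters' processing notes name bcl2fastq 2.17.1.14, cutadapt 1.10, STAR 2.5.3a, HTSeq 0.6.1p1 and DESeq2 1.16.1. Each of the 2 deposited tables holds raw counts per gene, which were used here, a normalized signal that the authors made by dividing counts by a size factor per library, and that signal per kb of median transcript length. Columns with the authors' own log2 fold changes and p-values were not used. The paper left out 1 WT mESC dataset, which was not analysed here.

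Counts were fitted with edgeR 4.0.16 in R 4.3.3 (quasi-likelihood test, filterByExpr, TMM, Benjamini-Hochberg adjustment over all genes tested), separately per cell type, and in 1 fit of the 26398 genes in both tables for the interaction and the comparisons between cell types. A call is an adjusted p of 0.05 or less. Cluster levels are CPM with joint TMM factors. DESeq2 1.42.0, other filters and normalizations, a replicate block, a GC correction and leaving out libraries were tried. Counting intervals are exact, at 95%. The scripts were tested on simulated data with 200 genes changed.

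Replicate numbers are those of the labels. Deviations of same-numbered MEF libraries correlated across genes (r = 0.47, 0.16 and 0.24). The numbers were therefore taken as a possible pairing of the MEF samples, on the data alone. The main test did not use this pairing, which entered only through the replicate block. In mESCs the third mutant library alone has its number, so the block there takes no genotype difference from that library. Groups of 2 or 3 libraries limit the precision.

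Members and lists were chosen with earlier results of these data known. Of the glia and Schwann cell markers first listed, 2 are not reported here. Named were the C-type genes, the 2 members with the highest level per length in each cluster and cell type and up to 4 called members with the largest fold change per cluster, comparison and direction. Other members named with values were chosen after their values were seen.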

Additional observations from a re-analysis of the deposited data

How the results depend on the processing

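Of the results that answer a comparison, 252 values kept their direction and call, or lay within 1.5 times, under the alternatives, and 29 moved. The number of members lower in MEFs (2) was 0 with no filter on low counts, 11 with DESeq2, 4 with the replicate block, 4 with the block and a GC correction, and 4 in 1 fit of all 11 libraries, and 0 to 1 when a library was left out. The number lower in mESCs (0) was 2 with DESeq2 and 0 to 1 when a library was left out. The mESC replicate numbers did not pair the samples (same-numbered r of 0.0078 and -0.17), and the block made 0 calls there and 0 for the interaction, for which DESeq2 gave 1 higher and 1 lower. That block also left the third mutant library out of the mESC genotype difference. Crossed mESC numbers gave r of 0.17 and -0.0078 and were not fitted. Asking for 10 counts in every library left 9 members, and 7 were higher in MEFs in WT and 7 in the cells labelled Atxn7l3-/-. Leaving out a library gave 30 to 37 and 32 to 38 higher. Giving absent genes 0 counts in the table without them, an alternative chosen after seeing the data, changed none of these counts by over 1.5 times.

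The log2 ratio of summed levels moved when the median over members of log2(CPM + 0.5) took its place: for Pcdha in MEFs from -1.67 to -0.074, for Pcdhb in MEFs from -0.064 to -0.67, and between WT cell types from 4.05 to 0.14 (Pcdha), 7.03 to 1.82 (Pcdhb) and 2.98 to 2.27 (Pcdhg). Without its highest member the Pcdha ratio was -1.46 in mESCs (-0.23 with it) and 3.44 between WT cell types. With own-exon lengths the share of Pcdha per length went from 0.449 to 0.864% in WT mESCs, 0.595 to 1.06% in Atxn7l3-/- mESCs, 0.753 to 1.30% in WT MEFs and 0.375 to 0.662% in the labelled mutant MEFs, and that of Pcdhb in WT mESCs from 1.26 to 0.842%. The cause of these shifts was not tested.

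Signs turned for 3 C-type genes with fold changes near 0. Leaving out libraries gave ranges of -0.75 to 0.25 for Pcdhgc3 in mESCs, -0.28 to 0.45 for Pcdhgc4 in mESCs and -0.54 to 0.093 for Pcdhgc5 in MEFs. Pcdhgc3 in mESCs was 0.075, 0.25 and 0.093 without the second WT, first mutant and second mutant library. Pcdhgc4 in mESCs (0.21) was -0.28 without the third mutant library, -0.29 with the replicate block and -0.40 with block and GC correction. The block there sets the third mutant library aside, so these values are not separate checks. Pcdhgc5 in MEFs was 0.093 without the first WT and 0.090 without the second mutant library, 0.039 with the GC correction and 0.14 with GC correction and block.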
